A study of Mus musculus with 9 samples.

Results

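The subunits of respiratory complexes I, II, III and V were examined in mouse cardiomyocytes made from embryonic stem cells. The members were all genes of the array's annotation whose symbol starts with Nduf followed by a, b, c, s or v and a digit, with Uqcr or with Atp5, or is Sdha, Sdhb, Sdhc or Sdhd. This gave 64 of the 18193 genes measured, namely 35 named for complex I, 4 for complex II, 8 for complex III and 17 for complex V. Each gene was represented by its brightest probe set, the short group of probes that reports 1 transcript on an Affymetrix array, and 9 probe sets annotated to a member together with other genes were not used. Levels are log2 signals as the authors deposited them, and a difference of 1 is a doubling.

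Cells were sampled after 10, 20 or 30 days of differentiation, and 3 arrays cover each day. All groups shared the synp line, made from R1 embryonic stem cells of 129X1 x 129S1 background, and the cytokines Activin A, BMP4, VEGF, bFGF and FGF10. The line carries PAC, a puromycin resistance gene, under the Ncx1 promoter, and puromycin was present from day 7 at every time point, so 1 engineered line kept by 1 promoter stands for the cardiomyocytes. The labels do not say whether replicates were separate differentiations, so the p-values measure only the spread between these arrays, which may be technical.

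Complexes I and II pass electrons from NADH and succinate to ubiquinone, and complex III passes them on to cytochrome c. Complexes I and III pump protons across the inner mitochondrial membrane, and complex V, the ATP synthase, uses the returning protons to make ATP. Cardiac muscle is rich in these complexes because it contracts on ATP made in mitochondria, and the chain is known to grow as heart muscle matures after birth. Most subunits are encoded in the nucleus and a few in mitochondrial DNA.

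The labelled cell type was checked against markers. Calls are at an adjusted p under 0.05 in the limma fit, where 11.2% of all genes rose by day 30 and 9.92% fell. All 14 cardiomyocyte markers were measured, with a mean log2 level of 12.34 at day 10, 12.57 at day 20 and 12.65 at day 30, and 1 of them, Tnni3, the adult cardiac troponin I, rose by day 30. Summed on the linear scale and returned to log2, these markers ranged over 16.42 to 16.86 at day 10, 16.62 to 16.87 at day 20 and 16.80 to 16.88 at day 30. Of 11 fibroblast markers, 10 rose by day 30, and their sum ranged over 12.53 to 13.38 at day 10, 15.01 to 15.91 at day 20 and 16.13 to 16.39 at day 30. Of 7 measured cycling markers, 4 fell by day 30, and their sum ranged over 12.35 to 14.14 at day 10, 11.75 to 13.02 at day 20 and 11.69 to 12.34 at day 30. Within day 10 this sum was 12.35 in replicate 3, within the range of day 20, against 13.78 and 14.14 in replicates 1 and 2. Of 7 pluripotency markers 5 fell, with a sum of 8.53 to 9.38 at day 10, 7.50 to 7.79 at day 20 and 7.37 to 7.59 at day 30. Of 8 epithelial and endoderm markers 3 fell and 1 rose, with a sum of 9.77 to 12.07 at day 10, 8.72 to 8.81 at day 20 and 8.90 to 9.29 at day 30. Of 7 smooth muscle markers 2 rose and 2 fell, with a sum of 14.28 to 14.68 at day 10, 13.84 to 14.39 at day 20 and 13.01 to 14.01 at day 30, and of 7 endothelial markers 1 fell. The part of any of these cells in the results below was not tested, and in bulk samples fewer cells of a type and less RNA per cell cannot be told apart. Replicate 2 of day 30 stood apart in its controls, with an 18S rRNA signal of 10.27 against 12.07 to 13.44 on the other arrays and a 3 prime minus 5 prime actin difference of 0.79 against 0.23 to 0.59.

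Most of the respiratory chain genes gave bright signals. The mean over all arrays lay above the median of all genes, 6.63, for 63 of the 64 members, and above the 90th percentile, 9.97, for 61. Within complex I the mean signal ranged from 4.26 for Ndufb4 to 12.66 for Ndufa1 with a median of 11.71, and within complex II from 11.29 for Sdhc to 11.89 for Sdhd. Complex III ranged from 11.69 for Uqcrc1 to 13.35 for Uqcrb, and complex V from 11.42 for Atp5e to 13.32 for Atp5g3. These are signals of different probe sets and do not rank the transcripts. The 3 members under the 90th percentile were Ndufa4l2, Ndufb1 and Ndufb4.

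By day 30 the members lay slightly higher than at day 10. The difference was above 0 for 55 of 64 members (85.9%), against 45.7% of all genes, with a median of 0.18 over the members and -0.03 over all genes. The quartiles of the members were 0.07 and 0.32. In the limma fit 9 members rose, 14.1% of them, against 11.2% of all genes, and 0 fell, against 9.92% of all genes, at an adjusted p under 0.05. The share that rose was near that of all genes, many of which were dimmer than the members. A fit limited to the 9097 genes at or above the median signal called the same 9 members. It called 32.4% of those genes in either direction, against 21.1% of all genes in the main fit. At an unadjusted p under 0.05 there were 18 higher (28.1%) and 0 lower, against 16.9% and 17.3% of all genes. The 3 arrays of day 30 lay above the 3 of day 10 for 20 members (31.2%) and below them for 0, against 17.4% and 18.8% of all genes. Only Ndufa4l2 rose at least 2-fold, against 8.95% of all genes that passed the threshold at that size in either direction, and 56 members differed by under 0.5. Without replicate 2 of day 30, whose controls stood apart, 7 members rose. The count of risen members was 4 without replicate 1 or without replicate 3 of day 30, 10 without replicate 2 of day 10, and 10 without replicate 3 of day 10, where 1 member also fell. Of all genes, 14.3% and 14.1% were called in either direction without replicate 1 or 3 of day 30, and 14.4% without replicate 2. Without replicate 2 or 3 of day 10 the shares were 15.2% and 27.9%, against 21.1% with all arrays.

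By complex, 7 of 35 members named for complex I rose (20.0%), and 0 of 4 in complex II. In complex III 1 of 8 rose and in complex V 1 of 17 (5.88%), against 11.2% of all genes. The 35 include Ndufa4 and Ndufa4l2, which are not counted as complex I subunits below, and Ndufa4l2 is 1 of the 7. Of the others, 6 of 27 accessory members and 0 of 6 core members rose. The median difference between day 30 and day 10 was 0.25 for complex I, 0.02 for complex II, 0.17 for complex III and 0.12 for complex V. The median for complex III was 0.02 without replicate 1 of day 30, and 0.05 with the mean of each gene's probe sets. Whether the complexes differed from each other was not tested. Of the 55 members that did not pass, 53 had a 95% interval within 1 of 0 on both sides, and the bounds of these reached -0.47 and 0.90. The exceptions were Ndufb1 and Ndufb2.

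**Figure D1:**
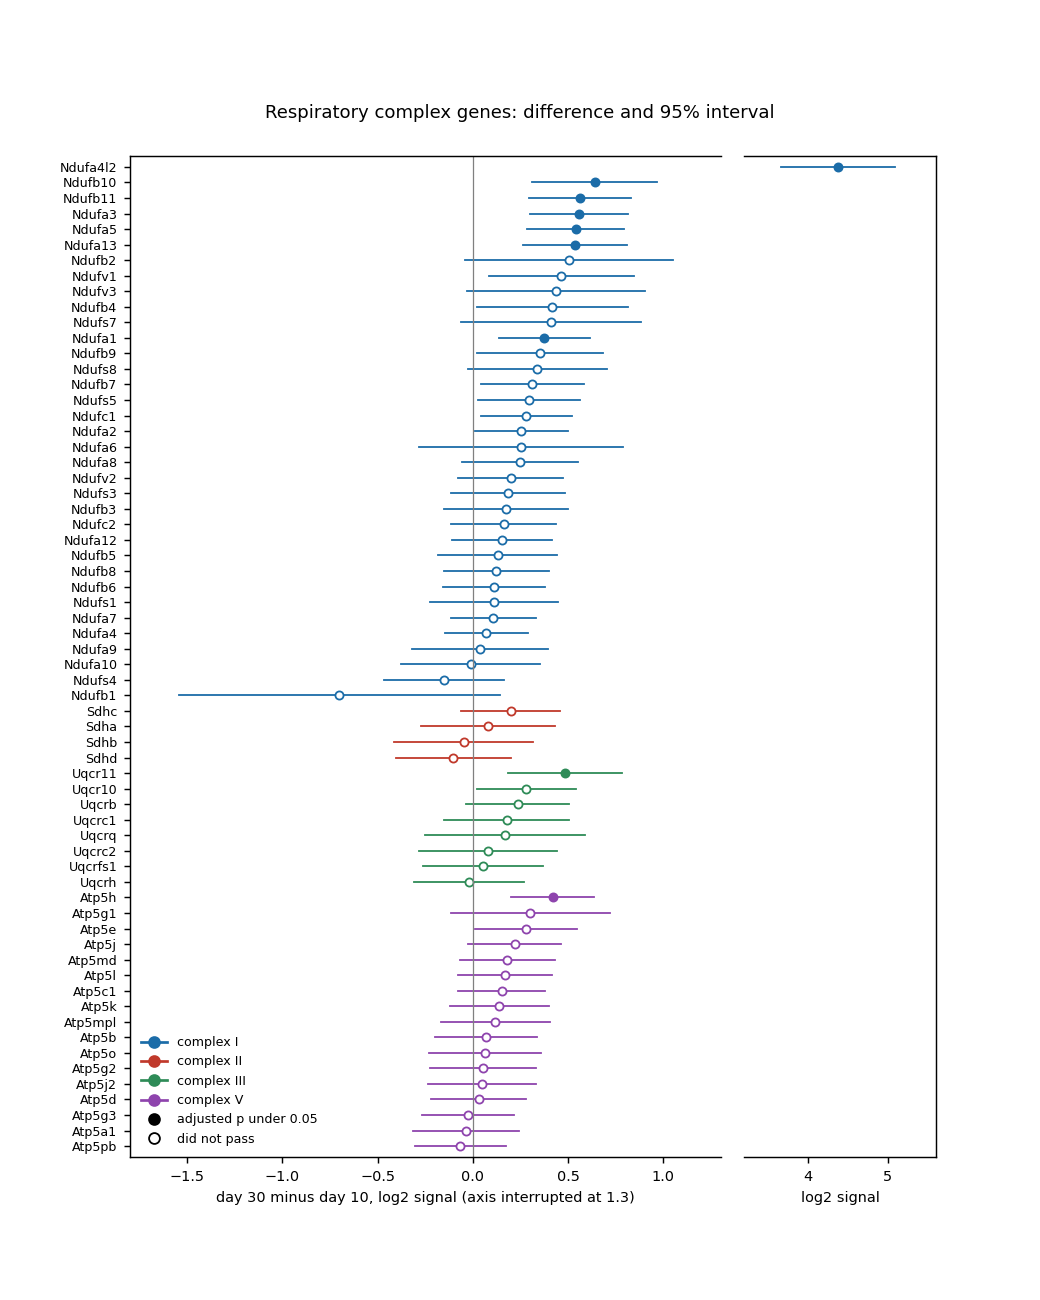
Log2 difference between day 30 and day 10 for each of the 64 members by complex, with its 95% interval from the limma fit and an interrupted axis for Ndufa4l2; filled points passed an adjusted p under 0.05. Ndufa4l2 stands at 4.37, and the other 8 that passed lie between 0.38 and 0.64.

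Ndufa4l2 moved most. It is a paralogue of Ndufa4, known as a gene induced by hypoxia whose product lowers complex I activity. Its log2 signal was 5.66, 5.90 and 6.13 at day 10, 10.07, 10.10 and 9.83 at day 20, and 10.99, 10.20 and 9.61 at day 30. All 3 arrays of day 20 and of day 30 lay above all 3 of day 10, while those of day 20 and day 30 overlapped. It averaged 10.27 ± 0.69 at day 30 and 5.90 ± 0.24 at day 10 (SD, n = 3 each), a difference of 4.37 (SE 0.31, 95% interval 3.66 to 5.08, adjusted p = 0.00014 in the limma fit), or 20.7-fold. Its level at day 10 lay under the median of all genes, 6.63, and was not shown to be above background, so this fold may understate the change. At day 20 the difference from day 10 was already 4.10 (adjusted p = 0.000408), and from day 20 to day 30 it was 0.27 (adjusted p = 0.83). The later step minus the earlier one was -3.83 (adjusted p = 0.035), the only such call among the members, against 0.478% of all genes. That call was lost without replicate 1 or 2 of day 10, without any 1 array of day 20, or without replicate 2 of day 30, with adjusted p up to 0.171.

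Ndufa4, first described as a complex I subunit and now placed in cytochrome c oxidase, gave 12.25, 12.34 and 12.24 at day 10, 12.04, 12.23 and 12.25 at day 20, and 12.34, 12.24 and 12.45 at day 30. Day 30 overlapped day 10, and the difference between day 30 and day 10 was 0.07 (95% interval -0.15 to 0.29, adjusted p = 0.664). The log2 difference Ndufa4l2 minus Ndufa4 averaged -6.38 ± 0.25 at day 10, -2.18 ± 0.23 at day 20 and -2.07 ± 0.75 at day 30 (SD, n = 3 each). An exact permutation test of the F statistic over the 3 days gave a two-sided p = 0.0321, or 0.0679 adjusted over the 3 paralogue pairs compared. The smallest p the design allows is 0.0036. It is hardly reachable where days 20 and 30 overlap, since splits that keep the day 10 arrays together then give a similar F. The adjusted value equals the permutation p of Atp5g1 minus Atp5g3, which the adjustment carries to all 3 pairs. The day 10 value holds the same limit as Ndufa4l2 itself, so the change may again be understated. The signals of the pair come from different probe sets, so only the change in this difference can be read, not its level.

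Among the proper complex I subunits, 6 rose by day 30, and every one is an accessory subunit, that is, one outside the conserved catalytic core. Ndufa3, Ndufa1, Ndufa13, Ndufb10 and Ndufb11 belong to the arm in the membrane, and Ndufa5 to the arm that reaches into the matrix. Ndufb10 and Ndufb11 sit in the part of the membrane arm far from the matrix arm, and Ndufa13 is also known as GRIM-19, a factor tied to cell death. Ndufa3 gave 12.13, 12.35 and 12.08 at day 10, 12.53, 12.85 and 12.75 at day 20, and 12.74, 12.75 and 12.74 at day 30. It averaged 12.74 ± 0.01 at day 30 and 12.19 ± 0.15 at day 10 (SD, n = 3 each), a difference of 0.56 (SE 0.11, adjusted p = 0.0106). All arrays of day 20 and day 30 exceeded those of day 10. Ndufa3 has 3 probe sets. The second brightest gave 0.60, and the dimmest, with a mean of 5.22, went the other way by -0.21. With the mean of the 3 the difference was 0.31 (adjusted p = 0.0688). The Ndufa3 call held when any 1 array was left out (adjusted p up to 0.0365).

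Ndufa5 gave 11.07, 11.23 and 11.14 at day 10, 11.37, 11.68 and 11.68 at day 20, and 11.78, 11.60 and 11.68 at day 30, with a difference between day 30 and day 10 of 0.54 (SE 0.11, adjusted p = 0.0116). Ndufb11 gave 11.84, 11.97 and 12.03 at day 10, 12.32, 12.41 and 12.56 at day 20, and 12.63, 12.30 and 12.60 at day 30, with a difference of 0.56 (SE 0.12, adjusted p = 0.0123). For both genes every array of the later days lay above every array of day 10, and both kept their calls when any 1 array was left out. Ndufb10 gave 10.50, 10.57 and 10.51 at day 10, 10.86, 11.11 and 11.23 at day 20, and 11.37, 10.90 and 11.23 at day 30, with a difference of 0.64 (SE 0.14, adjusted p = 0.0158), the largest among the proper subunits. Its lowest later array, at day 20, was 10.86 and its highest array of day 10 was 10.57. The call was lost without replicate 1 or replicate 3 of day 30 (adjusted p up to 0.0559).

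Ndufa13 gave 12.30, 12.40 and 12.03 at day 10, 12.61, 12.67 and 12.65 at day 20, and 12.90, 12.61 and 12.82 at day 30, and the difference was 0.54 (SE 0.12, adjusted p = 0.016). Its later arrays exceeded those of day 10, but day 20 did not pass against day 10 (0.40, adjusted p = 0.0598), and the day 30 call was lost without replicate 1 or 3 of day 30 (adjusted p up to 0.0585). Ndufa1 gave 12.46, 12.60 and 12.37 at day 10, 12.48, 12.75 and 12.73 at day 20, and 12.89, 12.79 and 12.86 at day 30, and the difference was 0.38 (SE 0.10, adjusted p = 0.0373). Here day 30 lay above the arrays of both earlier days, which overlapped each other. The call was the weakest of the 9: it was lost on leaving out any of 7 arrays (adjusted p up to 0.108) and held without replicate 2 of day 10 or replicate 1 of day 20.

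**Figure D2:**
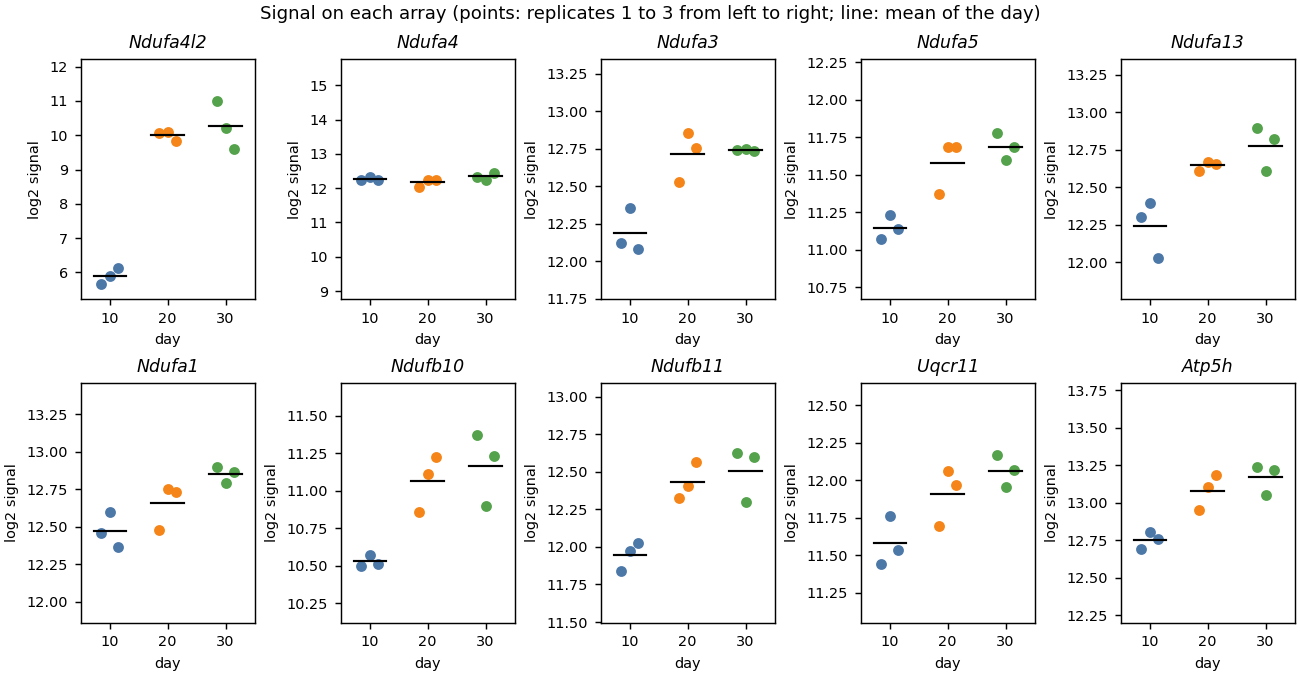
Log2 signal on each of the 9 arrays, by day, for Ndufa4l2, Ndufa4 and 8 members that rose by day 30; the vertical span is 7 for the Ndufa4 pair and 1.6 for the others. Ndufa4l2 lies at 5.66 to 6.13 at day 10 and 9.61 to 10.99 at day 30, while Ndufa4 stays within 12.04 to 12.45.

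The promoters of 4 risen members that hold a motif known for respiratory chain genes are shown, since these genes rose by day 30. RefSeq gave a 300-base promoter window (250 bases before and 50 after the transcript start, GRCm38.p6) for 54 of the 64 members and 8 of the 9 that rose. Capitals mark the NRF-1 motif (GCGC, then A and any base, then GCGC), the ETS motif CCGGAAG bound by GABP, or the YY1 motif AAGATGGC, searched on both strands. Each is printed 5′ to 3′ on the strand of its gene. Ndufa5 has 2 annotated starts, and the same motif lies 190 bases before the other one.
Ndufa3 (chr7:3617123-3617422, plus strand, YY1 motif after the start): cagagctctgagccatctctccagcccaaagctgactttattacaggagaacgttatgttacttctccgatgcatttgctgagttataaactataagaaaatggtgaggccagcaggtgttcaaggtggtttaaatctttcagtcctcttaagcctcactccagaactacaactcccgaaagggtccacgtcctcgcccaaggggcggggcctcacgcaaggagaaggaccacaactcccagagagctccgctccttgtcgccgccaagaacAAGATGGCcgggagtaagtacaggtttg
Ndufa5 (chr6:24527641-24527940, minus strand, NRF-1 motif 26 bases before this start): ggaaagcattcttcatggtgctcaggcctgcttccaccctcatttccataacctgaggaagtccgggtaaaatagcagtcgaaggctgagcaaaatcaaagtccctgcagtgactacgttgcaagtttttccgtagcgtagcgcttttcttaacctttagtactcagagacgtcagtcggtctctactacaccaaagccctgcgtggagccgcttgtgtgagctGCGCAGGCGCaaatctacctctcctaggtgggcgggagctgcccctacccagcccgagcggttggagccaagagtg
Uqcr11 (chr10:80406772-80407071, minus strand, ETS motif 66 bases before the start): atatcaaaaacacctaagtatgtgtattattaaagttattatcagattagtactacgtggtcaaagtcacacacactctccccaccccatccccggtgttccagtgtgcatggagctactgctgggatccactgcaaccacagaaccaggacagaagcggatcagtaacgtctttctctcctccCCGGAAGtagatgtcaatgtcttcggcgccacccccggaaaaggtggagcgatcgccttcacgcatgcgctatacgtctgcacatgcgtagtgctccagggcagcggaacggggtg
Atp5h (chr11:115419870-115420169, minus strand, NRF-1 motif 141 and ETS motif on the other strand 38 bases before the start): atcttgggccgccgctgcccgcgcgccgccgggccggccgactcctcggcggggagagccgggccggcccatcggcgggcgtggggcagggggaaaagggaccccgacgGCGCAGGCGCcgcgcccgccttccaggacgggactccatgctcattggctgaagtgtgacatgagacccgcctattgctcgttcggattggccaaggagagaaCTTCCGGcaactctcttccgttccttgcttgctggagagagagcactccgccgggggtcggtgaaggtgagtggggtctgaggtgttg

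The NRF-1 motif occurred in 14 of 54 member promoters (25.9%) against 5.19% of all 27025 genes with a window, and the ETS motif in 14 (25.9%) against 9.93%. The YY1 motif occurred in 9 (16.7%) against 3.19%, and the ERR motif TCAAGGTCA in 2 (3.7%) against 0.466%. Of the 8 risen members with a window, 2 held the NRF-1 motif, 2 the ETS motif and 1 the YY1 motif. The core letters of a hypoxia response element, ACGTG, occurred in 15 member promoters (27.8%) against 21.8% of all genes, and GCGTG in 29 (53.7%) against 35.2%. Ndufa4l2 was not among the promoters analysed here. These matches are descriptions of the letters only.

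No subunit of the catalytic core of complex I passed the threshold. Of its 6 measured members 0 rose and 0 fell, and all 6 differences were above 0, from 0.11 to 0.46, with a median of 0.27. The 27 accessory members had a median of 0.25, with 24 above 0 and 6 risen, and whether core and accessory members differed was not tested. This grouping was made after the values were seen. The membrane arm had 5 of 19 risen with a median of 0.29, and the matrix arm 1 of 14 with a median of 0.23, where 11.2% of all genes rose.

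Ndufv1, which binds NADH and the flavin, gave 11.16, 11.40 and 11.68 at day 10, 11.71, 11.86 and 11.98 at day 20, and 12.14, 11.69 and 11.80 at day 30, with a difference between day 30 and day 10 of 0.46 (95% interval 0.08 to 0.84, adjusted p = 0.0841). The arrays of day 30 lay just above those of day 10. Ndufs7, an iron-sulphur subunit beside the ubiquinone site, gave 11.05, 11.30 and 11.90 at day 10, 11.77, 12.11 and 11.95 at day 20, and 11.96, 11.74 and 11.78 at day 30, with a difference of 0.41 (95% interval -0.06 to 0.88, adjusted p = 0.201). Replicate 3 of day 10 was the highest array of that day for both, and without it Ndufv1 differed by 0.60 (adjusted p = 0.0279) and Ndufs7 by 0.65 (adjusted p = 0.0117). With array weights and all arrays kept, the differences were 0.51 (adjusted p = 0.0205) for Ndufv1 and 0.52 (adjusted p = 0.0207) for Ndufs7. Of all genes, 27.9% were called without replicate 3 of day 10 and 33.7% with array weights, against 21.1% in the main fit.

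Ndufs8, another iron-sulphur subunit near it, gave 11.38, 11.49 and 11.12 at day 10, 11.22, 11.55 and 11.56 at day 20, and 11.82, 11.40 and 11.79 at day 30, with a difference of 0.34 (95% interval -0.03 to 0.70, adjusted p = 0.176). Ndufs1, the largest iron-sulphur subunit, gave 11.16, 11.43 and 11.51 at day 10, 11.15, 11.28 and 11.48 at day 20, and 11.68, 11.26 and 11.50 at day 30, with a difference of 0.11 (95% interval -0.23 to 0.45, adjusted p = 0.658). Day 30 overlapped day 10 for both. Ndufv2, which carries an iron-sulphur cluster next to Ndufv1, gave 11.84, 12.06 and 12.08 at day 10, 11.89, 12.10 and 12.17 at day 20, and 12.30, 12.02 and 12.25 at day 30, with a difference of 0.20 (95% interval -0.08 to 0.47, adjusted p = 0.289), and Ndufs3, the other core member, differed by 0.18 (adjusted p = 0.367).

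Few complex I members were lower at day 30. Ndufb1, a small membrane-arm subunit, gave 7.85, 7.57 and 6.33 at day 10, 6.20, 6.64 and 6.63 at day 20, and 6.76, 6.23 and 6.66 at day 30, with a difference of -0.70 (95% interval -1.54 to 0.14, adjusted p = 0.221). Replicate 3 of day 10 lay among the later arrays, and without it Ndufb1 fell by 1.16 (adjusted p = 0.0060). Leaving out that array also raised the share of all genes called to 27.9%, against 21.1% with all arrays. Ndufb1 was read by 1 probe set with a mean of 6.76 over all arrays, close to the median of all genes, 6.63. Its means at day 20 and day 30, 6.49 and 6.55, lay under that median and were not shown to be above background. Ndufs4, an accessory subunit whose loss in mice gives a Leigh-like disease, gave 10.44, 10.62 and 10.72 at day 10, 10.30, 10.66 and 10.59 at day 20, and 10.60, 10.26 and 10.46 at day 30, with a difference of -0.15 (95% interval -0.47 to 0.16, adjusted p = 0.485), and day 30 overlapped day 10. Ndufa10 had the only other negative value, -0.01 (adjusted p = 0.97). Among the members without a call, Ndufb2 (0.50), Ndufv3 (0.44), Ndufb4 (0.42), Ndufb9 (0.35) and Ndufb7 (0.31) had the largest positive values outside the core. Ndufb4 was read by a dim probe set, with a mean of 4.03 at day 10, under the median of all genes. The remaining 13 complex I members did not pass and differed by 0.04 to 0.29, all upward.

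Complex II, the succinate dehydrogenase shared with the citric acid cycle, showed no member past the threshold at any day. Sdha, the flavoprotein that oxidises succinate, gave 11.15, 11.50 and 11.65 at day 10, 11.32, 11.40 and 11.56 at day 20, and 11.71, 11.35 and 11.48 at day 30, with a difference between day 30 and day 10 of 0.08 (95% interval -0.27 to 0.43, adjusted p = 0.767). A second bright probe set of Sdha gave 0.45, so the pair disagreed in size. Sdhb, the iron-sulphur subunit, gave 11.57, 11.88 and 11.62 at day 10, 11.52, 11.80 and 11.77 at day 20, and 11.86, 11.33 and 11.75 at day 30, with a difference of -0.05 (95% interval -0.42 to 0.32, adjusted p = 0.872). Day 30 overlapped day 10 for both. Sdhc, a membrane anchor, gave 10.92, 11.13 and 11.29 at day 10, 11.32, 11.51 and 11.50 at day 20, and 11.40, 11.23 and 11.31 at day 30, with a difference of 0.20 (95% interval -0.06 to 0.46, adjusted p = 0.267). Its arrays of day 20 lay above those of day 10, at 0.33 (adjusted p = 0.0933), while day 30 overlapped day 10. Sdhd, the other anchor, gave 11.70, 11.91 and 12.13 at day 10, 11.79, 11.97 and 12.05 at day 20, and 11.92, 11.67 and 11.84 at day 30, with a difference of -0.10 (95% interval -0.41 to 0.20, adjusted p = 0.644). The 95% intervals of the 4 members, from their brightest probe sets, reached no higher than 0.46 and no lower than -0.42 on the log2 scale.

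In complex III the small subunit Uqcr11 rose. It gave 11.44, 11.76 and 11.54 at day 10, 11.69, 12.06 and 11.96 at day 20, and 12.17, 11.95 and 12.07 at day 30, averaging 12.06 ± 0.11 at day 30 and 11.58 ± 0.16 at day 10 (SD, n = 3 each). The difference was 0.48 (SE 0.13, adjusted p = 0.0324), and the arrays of day 30 lay above those of day 10 while day 20 overlapped both. The call was lost without replicate 1 or 3 of day 10, replicate 3 of day 20, or any 1 array of day 30 (adjusted p up to 0.104). Uqcr10, another small subunit, gave 11.51, 11.69 and 11.42 at day 10, 11.59, 11.93 and 11.75 at day 20, and 11.87, 11.80 and 11.78 at day 30, with a difference of 0.28 (95% interval 0.02 to 0.54, adjusted p = 0.119), and its day 30 arrays lay above day 10. Its 3 probe sets disagreed, with 0.28, 0.03 and -0.35, in order of falling signal. Uqcrb, a subunit near the ubiquinone site, gave 13.11, 13.32 and 13.20 at day 10, 13.17, 13.51 and 13.49 at day 20, and 13.33, 13.50 and 13.50 at day 30, with a difference of 0.23 (95% interval -0.04 to 0.50, adjusted p = 0.202), again without overlap of day 30 and day 10.

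No larger subunit of complex III passed the threshold. Uqcrc1, a core protein facing the matrix, gave 11.53, 11.61 and 11.53 at day 10, 11.68, 11.77 and 11.91 at day 20, and 12.01, 11.44 and 11.75 at day 30, with a difference of 0.18 (95% interval -0.15 to 0.50, adjusted p = 0.436). Its partner Uqcrc2 gave 11.55, 11.53 and 11.82 at day 10, 11.69, 11.80 and 12.12 at day 20, and 11.85, 11.46 and 11.82 at day 30, with a difference of 0.08 (95% interval -0.28 to 0.44, adjusted p = 0.783). Uqcrfs1, the Rieske iron-sulphur protein that hands electrons to cytochrome c1, gave 11.83, 12.01 and 12.23 at day 10, 12.03, 12.17 and 12.26 at day 20, and 12.26, 11.89 and 12.08 at day 30, with a difference of 0.05 (95% interval -0.26 to 0.37, adjusted p = 0.836). Day 30 overlapped day 10 in each of them. Uqcrq differed by 0.17 (adjusted p = 0.57) and Uqcrh, the hinge protein, by -0.02 (adjusted p = 0.931).

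In complex V the member that rose was Atp5h, subunit d of the stalk that holds the catalytic head still. It gave 12.69, 12.80 and 12.76 at day 10, 12.95, 13.11 and 13.18 at day 20, and 13.24, 13.05 and 13.22 at day 30, averaging 13.17 ± 0.10 at day 30 and 12.75 ± 0.06 at day 10 (SD, n = 3 each). The difference was 0.42 (SE 0.10, adjusted p = 0.0172), and all later arrays lay above day 10. It was lost without replicate 1 or 3 of day 30 (adjusted p up to 0.0615), and its 2 probe sets gave the same difference to 2 decimals. Atp5j, a stalk subunit also called coupling factor 6, gave 12.18, 12.42 and 12.40 at day 10, 12.37, 12.59 and 12.58 at day 20, and 12.59, 12.45 and 12.61 at day 30, with a difference of 0.22 (95% interval -0.02 to 0.46, adjusted p = 0.186), its day 30 arrays above those of day 10. Atp5pb, subunit b of the same stalk, differed by -0.07 (adjusted p = 0.709) and Atp5o, which joins the stalk to the head, by 0.06 (adjusted p = 0.778). So within the stalk 1 member of 4 passed, where 11.2% of all genes rose.

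No subunit of the catalytic head or its shaft passed. Atp5a1, subunit alpha, gave 12.95, 13.10 and 13.06 at day 10, 12.87, 12.96 and 13.12 at day 20, and 13.18, 12.79 and 13.03 at day 30, with a difference of -0.04 (95% interval -0.31 to 0.24, adjusted p = 0.876). Atp5b, the catalytic subunit beta, gave 13.10, 13.25 and 13.07 at day 10, 13.04, 13.29 and 13.37 at day 20, and 13.35, 13.09 and 13.19 at day 30, with a difference of 0.07 (95% interval -0.20 to 0.34, adjusted p = 0.737). Day 30 overlapped day 10 for both. Atp5c1, subunit gamma of the central shaft, gave 12.75, 12.85 and 12.93 at day 10, 12.98, 13.14 and 13.17 at day 20, and 13.12, 12.89 and 12.98 at day 30, with a difference of 0.15 (95% interval -0.08 to 0.38, adjusted p = 0.329), and a second, dim probe set gave -0.17. Atp5e, subunit epsilon, gave 11.14, 11.53 and 11.24 at day 10, 11.25, 11.45 and 11.41 at day 20, and 11.55, 11.56 and 11.64 at day 30, with a difference of 0.28 (95% interval 0.01 to 0.54, adjusted p = 0.132). Its day 30 arrays lay above those of both earlier days, and without replicate 2 of day 10 the difference was 0.39 (adjusted p = 0.0412). Atp5md, a small membrane subunit, gave 11.77, 11.80 and 11.52 at day 10, 11.65, 11.90 and 11.82 at day 20, and 11.79, 11.89 and 11.94 at day 30, with a difference of 0.18 (95% interval -0.07 to 0.43, adjusted p = 0.288). The other 5 members, Atp5d, Atp5j2, Atp5k, Atp5l and Atp5mpl, did not pass and differed by 0.03 to 0.17.

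Atp5g1, Atp5g2 and Atp5g3 encode the same mature c subunit, which forms the proton-driven ring. Atp5g1 gave 11.68, 11.80 and 11.44 at day 10, 11.58, 11.86 and 11.85 at day 20, and 12.27, 11.59 and 11.97 at day 30, with a difference of 0.30 (95% interval -0.12 to 0.72, adjusted p = 0.291). Atp5g2 gave 11.75, 12.02 and 12.03 at day 10, 12.06, 12.40 and 12.10 at day 20, and 12.05, 11.93 and 11.98 at day 30, with a difference of 0.05 (95% interval -0.23 to 0.33, adjusted p = 0.809). Atp5g3 gave 13.30, 13.45 and 13.32 at day 10, 13.19, 13.25 and 13.34 at day 20, and 13.47, 13.15 and 13.38 at day 30, with a difference of -0.03 (95% interval -0.27 to 0.21, adjusted p = 0.89). Day 30 overlapped day 10 for each, while the day 20 arrays of Atp5g2 lay above those of both other days. The log2 difference Atp5g1 minus Atp5g3 averaged -1.72 ± 0.14 at day 10, -1.49 ± 0.11 at day 20 and -1.39 ± 0.18 at day 30 (SD, n = 3 each; exact permutation p = 0.0679, adjusted 0.0679). Atp5g2 minus Atp5g3 averaged -1.43 ± 0.13, -1.08 ± 0.20 and -1.35 ± 0.11 at the same days (exact permutation p = 0.0536, adjusted 0.0679). Neither passed after adjustment.

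At day 20 the members already lay above day 10. Both comparisons share the day 10 arrays. Against day 10, 53 of 64 members (82.8%) were higher at day 20, against 44.3% of all genes, with a median of 0.14 against -0.03 for all genes. There 5 members rose (7.81%), all named for complex I, against 7.30% of all genes, and 0 fell, against 6.69%. These were Ndufa4l2, Ndufa3 (0.52, adjusted p = 0.0202), Ndufb11 (0.49, adjusted p = 0.0316), Ndufa5 (0.43, adjusted p = 0.0385) and Ndufb10 (0.54, adjusted p = 0.0428). This count was 1 without replicate 1 of day 10 or replicate 2 or 3 of day 20, 2 without replicate 2 of day 10, 3 without replicate 3 of day 30, and 9 without replicate 3 of day 10, where 1 member also fell. Without replicate 3 of day 10, 25.5% of all genes were called at day 20 in either direction, against 14% with all arrays. Without any other 1 array the share was 5.57% to 12.1%. Day 20 lay above day 10 without overlap for 16 members (25.0%), against 14.5% of all genes, and below for 0, against 17.3%. From day 20 to day 30, limma called 0 members, against 0.335% of all genes, and 0 passed at an unadjusted p under 0.05, against 10.9%. The median step was 0.05, 3 members lay above day 20 without overlap (Ndufa1, Atp5e and Atp5k), against 11.7% of all genes, and 1 lay below (Atp5g2), against 9.72%. A moderated F test over all days called 7 members (10.9%), against 17.5% of all genes. Without 1 array it called 1 to 9, with 1 without replicate 1 of day 10, 2 without replicate 1 or 3 of day 30, 3 without replicate 2 of day 10, and 4 without replicate 2 or 3 of day 20. The share of all genes then ran from 10.6%, without replicate 2 of day 10, to 27.7%, without replicate 3 of day 10.

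The members moved together from array to array within a day. Replicate 1 of day 20 was the lowest array of its day for 60 of 64 members, against 41.6% of all genes, and replicate 2 of day 30 was the lowest of its day for 52, against 35.2%. Replicate 1 of day 30 was the highest of its day for 50, against 28.6%, and replicate 1 of day 10 the lowest of its day for 42, against 36.2%. The mean pairwise Pearson r of the deviations from the day means over the 9 arrays was 0.51 among members and 0.0066 among all genes. It was 0.48 in complex I, 0.77 in complex II, 0.40 in complex III and 0.55 in complex V, as a description of points that share arrays. The median deviation of the members from their own means averaged -0.11 ± 0.10 at day 10, 0.04 ± 0.12 at day 20 and 0.07 ± 0.12 at day 30 (SD, n = 3 each), so the shift between days was of the order of the spread between replicates. Replicate 2 of day 30, low for most members, is the array with the low 18S rRNA signal, and the part of this in the result was not tested. For all genes the per-array median deviation stayed within 0.04 of 0. Array medians lay within 0.07, which holds this value near 0 and leaves the all-gene r little room. Neither is an independent background, and no set of equally bright genes was compared.

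**Figure D3:**
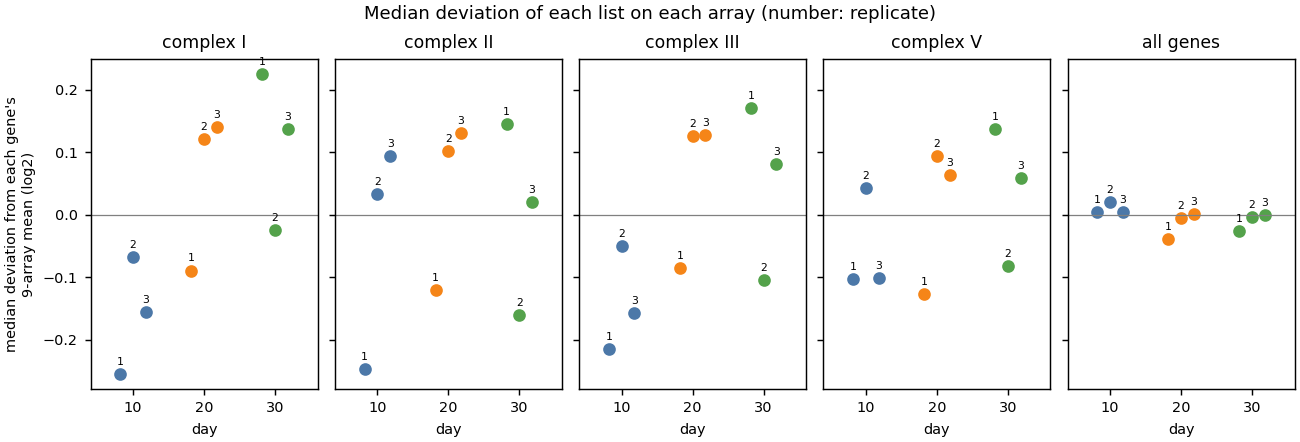
Median deviation from each gene's own mean, in log2 units, on each of the 9 arrays by day, for the members of each complex and for all genes. Taken over all complexes together, which has no panel, the members average -0.11 at day 10 and 0.07 at day 30 with an SD near 0.1. All genes stay near 0, where the near-equal array medians hold them.

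Other genes of the pathway were compared in lists. Of 31 measured assembly factors of these complexes, 1 rose and 2 fell by day 30, against 11.2% and 9.92% of all genes. Their median difference was 0.01. Sdhaf1, which helps place iron-sulphur clusters in Sdhb, rose by 0.66 (adjusted p = 0.0122). The complex I assembly factors Ndufaf6 (-0.45, adjusted p = 0.0327) and Timmdc1 (-0.52, adjusted p = 0.0454) fell, and Ndufaf4 differed by -0.41 (adjusted p = 0.0617). Ndufab1, the acyl carrier subunit of complex I that the rule leaves out, differed by 0.06 (adjusted p = 0.711). ND5, the only subunit encoded by mitochondrial DNA analysed here, differed by 0.26 (adjusted p = 0.395).

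The list of complex IV subunits and cytochrome c, with Cyc1 of complex III, had 5 risen and 0 fallen of 17 measured. Its median was 0.04, and of all genes 11.2% rose and 9.92% fell. The muscle forms Cox8b (3.25, adjusted p = 0.0034), Cox6a2 (2.07, adjusted p = 0.0163) and Cox7a1 (1.58, adjusted p = 0.0329) rose, as did Cox4i2 (1.11, adjusted p = 0.0246), an isoform known to be favoured at low oxygen, and Cox6c (0.44, adjusted p = 0.0225). Apart from Ndufa4l2, no member of complexes I, II, III or V differed by as much as Cox4i2. Cyc1, cytochrome c1 of complex III, differed by -0.01 (adjusted p = 0.981). The rule leaves it out of the members, so the complex III median does not hold it.

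Of 17 regulators of respiratory chain genes, 4 rose and 2 fell, against 11.2% and 9.92% of all genes, with a median of 0.02. Ppara, a fatty acid receptor that drives oxidation genes, rose by 2.58 (adjusted p = 0.0027) and Perm1, a muscle co-regulator, by 1.74 (adjusted p = 0.0122), and Polrmt and Ppard also rose. Nrf1, the factor that binds the NRF-1 motif, fell by 0.77 (adjusted p = 0.0055) and Pprc1, a co-activator of the PGC-1 family, fell by 0.64 (adjusted p = 0.005). Ppargc1a differed by 0.29 (adjusted p = 0.172), Esrra by 0.47 (adjusted p = 0.0656) and Tfam, which maintains mitochondrial DNA, by -0.21 (adjusted p = 0.205).

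Among 23 measured carriers, import proteins and housekeeping genes of mitochondria, 1 rose and 8 fell, against 11.2% and 9.92% of all genes. Their median was -0.18. The chaperonins Hspd1 (-1.03, adjusted p = 0.0015) and Hspe1 (-0.71, adjusted p = 0.0033), the prohibitin Phb2 (-0.85, adjusted p = 0.0106) and the import receptor Tomm70a (-0.70, adjusted p = 0.0138) fell. The fusion protein Mfn2 rose by 0.97 (adjusted p = 0.0354). Citrate synthase, Cs, often used as a measure of mitochondrial content, differed by -0.17 (adjusted p = 0.303), and the heart ADP/ATP carrier Slc25a4 by -0.05 (adjusted p = 0.779). No list was compared with another by a test.

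**Figure D4:**
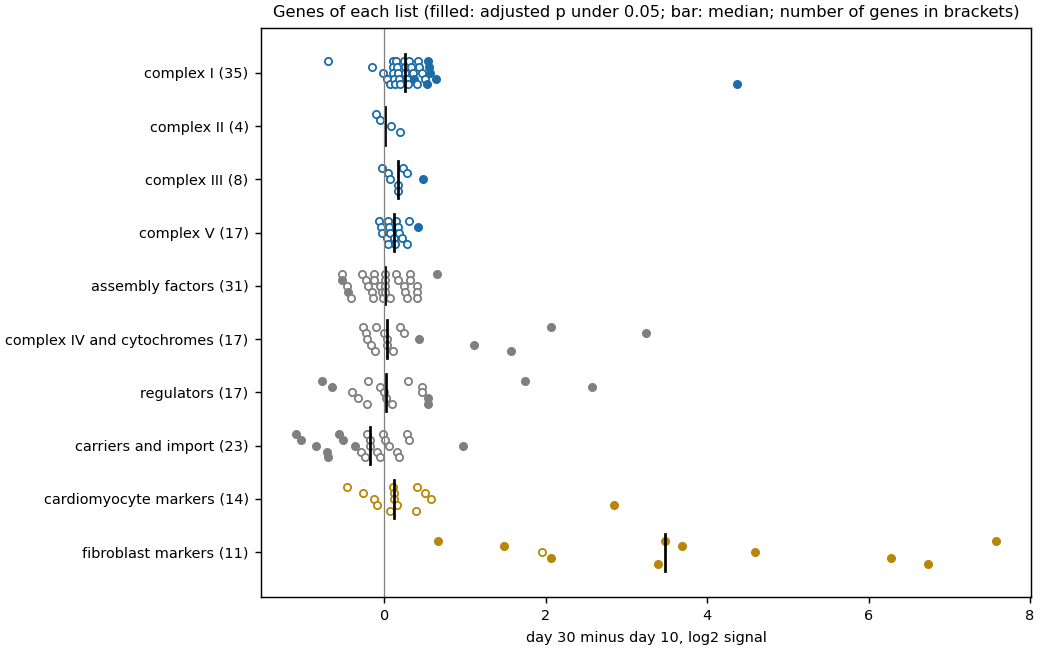
Log2 difference between day 30 and day 10 for each gene of complexes I, II, III and V, of the pathway lists and of the cardiomyocyte and fibroblast markers. A bar stands at the median of each row, and each point is 1 gene. The median is 0.25 for complex I, 0.02 for complex II, 0.17 for complex III and 0.12 for complex V. Carriers, import and housekeeping genes have one of -0.18.

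Probe sets of 1 gene did not always go the same way. Of 37 members with at least 2 probe sets, 17 had differences of both signs between day 30 and day 10. Some of these differed in sign only through a dim probe set. In Ndufb2 the dimmest, with a mean of 6.39, gave -0.10 and the brightest 0.50. In Atp5d the brightest probe set gave 0.03 and the other -0.0036, both near 0. In Atp5a1 the brightest gave -0.04 and the next, also bright, 0.20. Among the 9 risen members differences of both signs were seen in Ndufa3, described above. For Ndufb11 the 3 probe sets gave 0.56, 0.50 and 0.57, and for Ndufa5 the pair gave 0.54 and 0.49, so these calls did not rest on the choice of probe set.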

How the data were processed

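RNA of 9 samples was taken up in TRIzol and labelled with an Affymetrix kit that primes at the 3 prime end, per the labels' protocols. The values used are the log2 signals the authors deposited, with 1 value for each probe set on each array. The normalization is not given in the sources used here, nor is the log base, which was taken as 2 from their range, 2.77 to 14.52. Array medians lay within 0.07, so no further normalization was applied. Of 45101 probe sets, 34945 had 1 symbol in the platform annotation, and the brightest stood for its gene.

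The model held 1 mean per day over the 9 arrays and used lmFit and eBayes of limma 3.58.1 (R 4.3.3), with 6 residual degrees of freedom and a prior of 2.18. Two-sided p-values were adjusted by Benjamini-Hochberg over 18193 genes, with a threshold of 0.05, and intervals are 95% from the same fit. With 3 arrays per day, their number limits the precision. Named members were the called ones, up to 4 per complex by adjusted p, a fixed set of catalytic and paralogous subunits, and the 3 largest differences each way. The members, lists and rules were chosen with earlier results of these data known, and the same holds for the alternatives. Same-numbered arrays of different days were compared by the correlation of their deviations, which ran from -0.15 to 0.43 and passed 0.1 in 3 of 9 pairs, so the numbers were not taken as pairs. Promoter sequences are RefSeq's, on GRCm38.p6; the authors' files name no build.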

Additional observations from a re-analysis of the deposited data

Results flagged for a closer look

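Ndufa4l2 changed differently in the later and the earlier interval. Its log2 signal differed by 0.27 between day 30 and day 20 and by 4.10 between day 20 and day 10, so that the later step minus the earlier one was -3.83 (adjusted p = 0.035 in the limma fit). The value stayed between -4.19 and -3.50 when 1 array was left out, with adjusted p from 0.0113 to 0.171. The arrays of day 30 spread from 9.61 to 10.99, more widely than those of day 20, from 9.83 to 10.10. Single outlying arrays could not be sought with 3 arrays per day.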

How the results depend on the processing

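Quantile normalization, median centring, the mean of each gene's probe sets, array weights, a trended robust prior and a replicate block were tried. Other settings left out dim genes, each array in turn, or probe sets whose names end in _s_at, _x_at or _a_at (suffixed probe sets). A fit limited to the arrays of the compared days was also tried. The 9 risen members became 4 to 10 with 1 array left out, and 0 to 1 fell. The replicate block gave 7, losing Ndufa1 (adjusted p = 0.0628) and Uqcr11 (0.0517), called 4 members over all days and 3 at day 20, and left 0 with a smaller later step (Ndufa4l2, adjusted p = 0.0619). Array weights called 12 over all days, 14 higher and 1 lower at day 20, and 1 lower at day 30. They called 6126 genes in all between day 30 and day 10, 33.7%, against 3841, 21.1%, in the main fit. Of all genes they called 35.2% over all days and 30.8% at day 20, against 17.5% and 14% in the main fit. The replicate block called 16.3% over all days, 13.3% at day 20 and 19.9% at day 30. Array weights also gained Ndufb1, Ndufb9, Ndufs7 and Ndufv1 at day 30, for 13 calls in all. Fitting only the days compared left 1 call at day 20 and 6 at day 30, losing Ndufa1 (adjusted p = 0.0586), Ndufa13 (0.0544) and Uqcr11 (0.0501). That fit called 7.29% of all genes at day 20 and 14.6% at day 30. Leaving out suffixed probe sets kept 51 of the 64 members, with 3 called at day 20 and 6 at day 30. Ndufa1, Ndufa13 and Ndufb10 had no other probe set. Under this setting 12.9% of all genes were called at day 20 and 19.6% at day 30, in either direction. Median centring lost Ndufa1 (0.0540), and the mean of probe sets lost Ndufa3 (0.0688). With 1 array left out, the calls numbered 1 to 9 higher and 0 to 1 lower at day 20, 1 to 9 over all days, and 0 to 2 for a smaller later step. The share of all genes called, in either direction, ran from 5.57% to 25.5% at day 20. It ran from 10.6% to 27.7% over all days and from 0% to 9.48% for the later step. The median difference of complex III was 0.050 with the mean of probe sets, 0.055 without suffixed ones, and 0.024 to 0.25 with 1 array left out. The medians over the members ran from 0.12 to 0.23 for day 30 minus day 10, 0.12 to 0.22 for day 20 minus day 10 and -0.03 to 0.11 for day 30 minus day 20, those of complex I from 0.22 to 0.34, complex II from -0.09 to 0.13 and complex V from 0.06 to 0.16. The paralogue difference Ndufa4l2 minus Ndufa4 changed by 3.94 to 4.69 between day 10 and day 30, Atp5g1 minus Atp5g3 by 0.23 to 0.41 and Atp5g2 minus Atp5g3 by 0.02 to 0.15. Both probe-set settings turned the sign of Atp5c1 (-0.0091 with the mean, -0.17 without suffixed probe sets) and Uqcr10 (-0.016 and -0.35). With 1 array left out, the uncalled differences between day 30 and day 10 changed sign in Atp5a1 (-0.13 to 0.072), Atp5b (-0.00049 to 0.13), Atp5g2 (-0.038 to 0.10), Atp5g3 (-0.098 to 0.065), Sdha (-0.064 to 0.19), Sdhb (-0.15 to 0.11), Sdhd (-0.21 to 0.0050) and Uqcrfs1 (-0.045 to 0.16). The causes were not tested.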
